A study of Mus musculus with 6 samples.

Results

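Small-subunit cytosolic ribosomal protein genes are described here in RNA-seq of morula-like aggregates, 3-dimensional clusters made from mouse expanded pluripotent stem cells. The set holds every row of the deposited table whose symbol is Rps followed by a number and an optional A, A1, X or L, together with Rpsa and Fau. Pseudogenes and the S6 kinases were left out, which gave 33 of 18388 rows, and all 33 passed the filter on low values (a mean of at least 1 FPKM). Aggregates treated with PFOA (perfluorooctanoic acid, a fluorinated surfactant that persists in the environment) gave 3 libraries, and aggregates given the vehicle DMSO gave another 3. Neither the dose of PFOA nor how long it was applied is given in the sources used here. Both groups came from the same kind of stem cell, kept first in N2B27LCDM and then in an induction medium at 37 °C, 5% CO2 and 20% O2. Nothing in the labels ties the replicates to separate cultures, so p-values measure the spread between libraries, which may be technical only.

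The small subunit of the ribosome binds the mRNA and reads its codons. It is built from 1 ribosomal RNA and a fixed set of proteins, each of which is normally present once per subunit, and it has a head and a body between which the mRNA passes. Genes for ribosomal proteins are among the most highly expressed in dividing cells. Their mRNAs begin with a run of pyrimidines, the terminal oligopyrimidine (TOP) motif, through which mTOR and the RNA-binding protein LARP1 control their translation and stability. MYC is known to raise the expression of many genes of ribosome production, and the series title places c-MYC in embryo compaction.

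RefSeq promoter sequences (GRCm38.p6, from 250 bases before to 50 after each annotated start) were matched for 25 of the 33 genes, with 30 starts. The stretch from 30 bases before to 20 after the start is shown for 8 genes, to display how the pyrimidine run sits beside the start. Shown are members that were low relative to DMSO (Rps18, Rps3, Rps12 and Rps19) and a member with a fold change near 0 (Rps21). The paralogs Rps27 and Rps27l and the fusion gene Fau are shown too. Rps14 and Rps27a had the lowest fold changes of the set, but no promoter was matched for either. Capitals mark the longest unbroken run of C and T between 20 bases before and 20 after the start, and each line reads along the strand of the gene.
Rps18, chr17:33955646-33955695, minus strand: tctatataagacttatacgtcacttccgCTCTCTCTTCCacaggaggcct
Rps3, chr7:99483690-99483739, minus strand: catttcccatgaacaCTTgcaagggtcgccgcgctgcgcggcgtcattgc
Rps12, chr10:23787190-23787239, minus strand: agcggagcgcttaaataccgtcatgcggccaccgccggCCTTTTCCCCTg
Rps19, chr7:24884562-24884611, plus strand: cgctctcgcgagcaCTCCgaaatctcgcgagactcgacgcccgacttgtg
Rps21, chr2:180257349-180257398, plus strand: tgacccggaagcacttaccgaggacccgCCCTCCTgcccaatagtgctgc
Rps27, chr3:90213629-90213678, minus strand: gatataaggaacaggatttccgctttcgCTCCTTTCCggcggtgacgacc
Rps27l, chr9:66946056-66946105, plus strand: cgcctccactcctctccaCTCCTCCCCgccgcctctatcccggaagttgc
Fau, chr19:6057917-6057966, plus strand: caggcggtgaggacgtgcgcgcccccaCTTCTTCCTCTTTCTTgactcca

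A run of at least 8 pyrimidines in that window was found at 12 of the 30 small-subunit starts (40.0%), against 16.0% of all 32851 promoters in the table. The run was 16 bases long at Fau, 11 at Rps18 and Rps12, 9 at Rps27 and Rps27l and 7 at Rps21, and 4 and 3 bases at the starts shown for Rps19 and Rps3. Annotated starts can lie away from the base at which transcription begins, so a short run says only that these letters are not in this window. The letters CCGGAAG, searched on both strands over the whole promoter and part of the sites that ETS factors such as GABPA bind, were in 12 of 30 (40.0%), against 8.9% of all promoters. The letters CACGTG, the E-box that MYC and MAX bind, were in 1 of 30 (3.3%), at another start of Rps19, against 7.2% of all promoters. GGGCGG, part of an SP1 site, was in 56.7% against 35.7%. TATAA was in 26.7% against 24.9%. At 47 starts of large-subunit genes the shares were 44.7% for a run of at least 8, 31.9% for CCGGAAG and 61.7% for GGGCGG. For CACGTG the large-subunit share was 14.9%, and for TATAA 23.4%. Starts were counted here, so a gene with several starts counts more than once. Each motif was searched on both strands and counted apart from the others, so a promoter can count under several, and a match describes letters and not a bound site.

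Depth is unknown, because only FPKM (fragments per kilobase of transcript, scaled to the fragments of each library) were used, without counts. FPKM summed to between 585739 and 630644 in PFOA and between 641975 and 657239 in DMSO. Libraries PFOA 1, DMSO 1 and DMSO 2 stood apart in ways that touch the results. PFOA 1 had the lowest total, and DMSO 1 and 2 had 64.4 and 59.5 FPKM of the pseudogene row Rpl31-ps12, against 0.00 to 0.48 FPKM in the other 4 libraries, so results are given without these libraries too. Pluripotency markers were high (Pou5f1 885.5 ± 34 FPKM in PFOA and 979 ± 34 in DMSO), with 5 of 10 lower and 5 higher in PFOA, and they summed to 3954 to 4450 FPKM in PFOA and 4590 to 4792 in DMSO. Dppa5a gave the largest part of that sum, at 1952 ± 244 FPKM in PFOA and 2239 ± 56 in DMSO. Tfcp2l1 was higher, at 26.9 ± 2.1 FPKM in PFOA and 23.0 ± 0.96 in DMSO, and the median log2 fold change of the 10 markers was 0.019. Each PFOA library lay below each DMSO library in 3 of them, against 13.7% of all tested genes, and above in 3, against 13.5%. The 7 trophectoderm markers summed to 494.6 to 564.0 FPKM in PFOA and 510.3 to 582.5 in DMSO, most of it from Krt18 and Krt8. The 6 primitive endoderm markers summed to 4.29 to 4.58 FPKM in PFOA and 3.89 to 4.92 in DMSO. The 8 fibroblast or feeder markers summed to 18.8 to 20.4 FPKM in PFOA and 21.1 to 26.0 in DMSO. All 6 tested ones were lower, against 52.4% of all tested genes, at a median log2 fold change of −0.19. The groups were apart downward in 2 of these 6, against 13.7% of all tested genes, and upward in 0, against 13.5%. At an unadjusted p below 0.05 in limma 2 were lower, against 12.5%, and 0 higher, against 8.56%. None of the listed markers was at 0 in every library. In bulk RNA, fewer cells of a type and less RNA per cell cannot be told apart, and the part of the marker differences in the results below was not tested.

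Transcripts of the small-subunit proteins were lower in PFOA in nearly every case, with differences that were small, and no single gene passed the threshold. Of the 33 genes, 32 had a log2 fold change below 0, against 52.4% of the 11876 tested genes. The median log2 fold change was −0.19, and over all tested genes it was −0.0065. None of the 33 (0 genes) had a Benjamini-Hochberg adjusted p under 0.05 in limma, where 0.00842% of all genes did, and the members' adjusted p ran from 0.11 to 0.97. In limma 17 of 33 were lower and 0 higher at an unadjusted p below 0.05, against 12.5% of all genes lower and 8.56% higher. In 20 of 33 each PFOA library lay below each DMSO library, against 13.7% of all genes, and no member had the groups apart the other way, against 13.5%. PFOA and DMSO overlapped for the remaining 13 genes. With each library scaled to its FPKM total, 31 of 33 were lower against 27.5% of all genes, at a median of −0.11 for the members and 0.074 for all genes. On that scale 13 members were lower at an unadjusted p below 0.05, against 4.21% of all genes, and 0 higher, against 21.1%. The groups were apart downward in 13 members, against 4.66% of all genes, and upward in 1, against 27.8%. Under quantile normalization the members' median was −0.047, with 24 of 33 lower against 46.3% of all genes. That 24 counts Rps26, which was at −7.0e-16, in effect no difference. At an unadjusted p below 0.05 in limma 7 members were then lower, against 9.38% of all genes, and 2 higher, against 11.5%. The groups were apart downward in 8 of 33, against 10.3% of all genes, and upward in 2, against 16.6%.

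**Figure D1:**
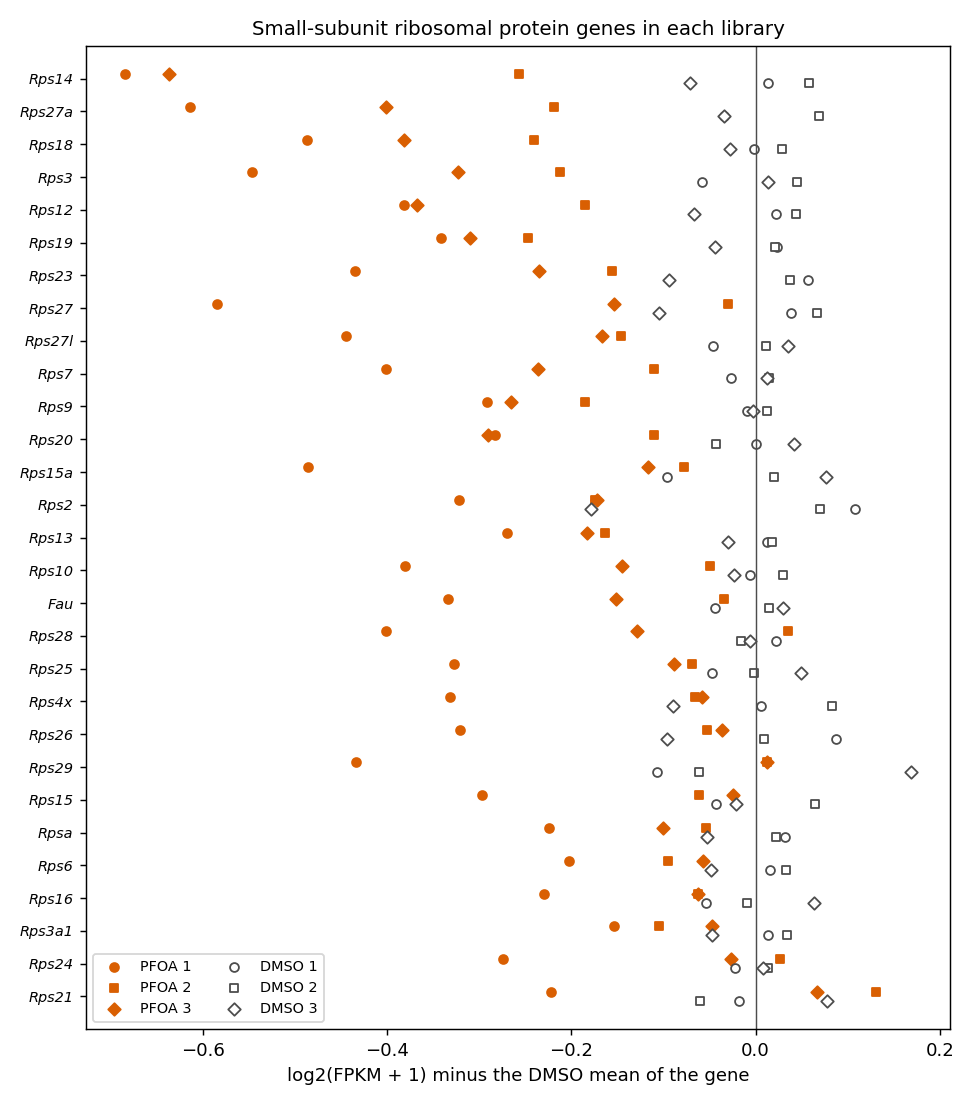
Values of 29 small-subunit ribosomal protein genes in each library, as log2(FPKM + 1) minus the mean of the 3 DMSO libraries (horizontal axis), with filled symbols for PFOA and open symbols for DMSO. Over all 33 members, PFOA 1 was the lowest PFOA library for 32 and PFOA 2 the highest for 26.

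The size of the difference varied with the library. PFOA 1 lay below the lowest DMSO library for all 33 genes, PFOA 3 for 25 and PFOA 2 for 22. These counts were taken over the members only, so no share over all genes stands beside them. The median over the members, relative to the DMSO mean of each gene on the log2 scale, was −0.33 in PFOA 1, −0.078 in PFOA 2 and −0.15 in PFOA 3, against −0.0033, 0.020 and −0.017 in DMSO 1, 2 and 3. The groups did not overlap. Without PFOA 1 the median log2 fold change was −0.097, with 30 of 33 lower. Without PFOA 2 it was −0.25, and 6 genes then passed the threshold in limma, where 0.766% of all genes were called lower. Those 6 were Rps14, Rps27a, Rps18, Rps3, Rps19 and Rps20, with Benjamini-Hochberg adjusted p between 0.020 and 0.0498 in limma. With DMSO 1 and 2 both left out, DMSO 3 is the single control, and its variance is taken to be that of the rest. All 33 genes were then lower, against 48.8% of all genes, with a median of −0.18 and 0 called by limma (6 lower at an unadjusted p under 0.05, against 3.49% of all genes, and 0 higher, against 1.45%).

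Summed over the 33 genes, the small-subunit transcripts held 59942, 71476 and 68686 FPKM in PFOA 1, 2 and 3, against 76424, 77050 and 73948 FPKM in DMSO 1, 2 and 3. Every PFOA sum was below every DMSO sum. The mean was 66701 ± 6018 FPKM in PFOA and 75807 ± 1640 in DMSO (SD, n = 3 each), a difference of −12.0%. As a share of all FPKM of the library, the set took 10.23%, 11.33% and 11.02% in PFOA and 11.67%, 11.72% and 11.52% in DMSO. The FPKM total was lower in PFOA as well (613181 ± 24058 in PFOA and 651456 ± 8276 in DMSO), so the share differed by −6.67% where the sum differed by −12.0%.

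The partner set, the proteins of the large subunit, is listed beside it because both subunits make up 1 ribosome. Of 53 tested large-subunit genes 50 were lower, against 52.4% of all genes, at a median of −0.16 on the log2 scale (−0.022 with a trend on longest transcript length removed). In limma 0 were called, against 0.00842% of all genes. At an unadjusted p below 0.05 in limma 30 were lower, against 12.5% of all genes, and 0 higher, against 8.56%. Each PFOA library lay below each DMSO library in 36 of 53, against 13.7% of all genes, and above in 0, against 13.5%. The largest log2 fold changes were −0.59 for Rpl22l1, −0.52 for Rpl34 and −0.40 for Rpl39. Their share of all FPKM was 13.56%, 14.81% and 14.2% in PFOA and 14.86%, 15.04% and 15.1% in DMSO. The ratio of summed small-subunit to summed large-subunit FPKM was 0.755, 0.765 and 0.776 in PFOA, against 0.785, 0.779 and 0.763 in DMSO. These ratios overlap between the groups, and their means, 0.766 ± 0.011 in PFOA and 0.776 ± 0.011 in DMSO (SD, n = 3 each), differ by less than the spread between replicates.

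**Figure D2:**
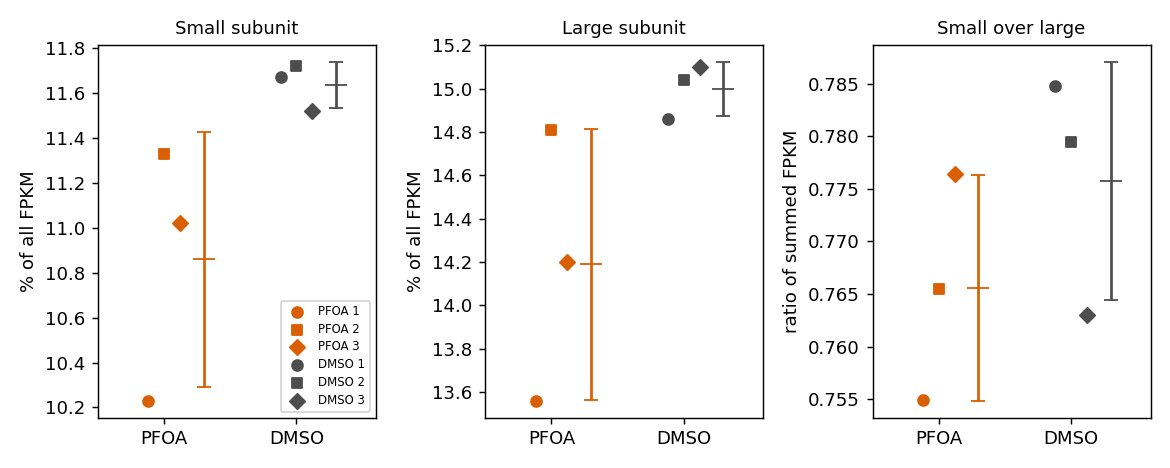
Share of all FPKM held by the small-subunit genes (left) and the large-subunit genes (middle), and the ratio of their summed FPKM (right), in each PFOA and DMSO library, with the mean and SD of the 3 libraries beside the points. Both shares were lowest in PFOA 1 (10.23% and 13.56%), and the ratios of the groups overlap; the axes do not start at 0.

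The lowest member relative to DMSO, Rps14, is of the body, and the next ones, Rps27a, Rps18, Rps3, Rps12 and Rps19, are of the head. Among 14 head proteins the median fold change was −0.19 on the log2 scale with 14 lower, and among 19 body proteins it was −0.21 with 18 lower, a grouping made after the values were seen. Each PFOA library lay below each DMSO library in 11 of 14 head and 9 of 19 body members, against 13.7% of all genes. Rps14, a body protein of the platform whose loss of 1 copy marks a human myelodysplastic syndrome, had the largest difference. Its values were 1267, 1705 and 1310.2 FPKM in PFOA 1, 2 and 3, against 2056, 2120.4 and 1939 FPKM in DMSO 1, 2 and 3. PFOA 1 and PFOA 3 were far below PFOA 2, and all PFOA values were below all DMSO values. The means were 1428 ± 241 FPKM in PFOA and 2039 ± 92 in DMSO (SD, n = 3 each), with a log2 fold change of −0.53 (SE 0.11, limma with Benjamini-Hochberg adjusted p = 0.11).

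Among the head proteins, Rps27a is made as a fusion with ubiquitin, which is cut off to leave the ribosomal protein. It had 779.6, 1026 and 904 FPKM in PFOA and 1166, 1253 and 1166 FPKM in DMSO. Each PFOA value was below each DMSO value, with a log2 fold change of −0.41 (SE 0.091, limma adjusted p = 0.12). Rps18, which lies at the top of the head and contacts the large subunit, had 1853, 2199 and 1994 FPKM in PFOA and 2595, 2649 and 2548 FPKM in DMSO. The groups did not overlap, and the PFOA spread was the wider one (log2 fold change −0.37, SE 0.069, limma adjusted p = 0.11). Rps3, at the entry of the mRNA channel and also known as a DNA repair factor, had 462, 583 and 539.8 FPKM in PFOA and 649, 697 and 682 FPKM in DMSO. Here too the groups were apart, with a log2 fold change of −0.36 (SE 0.080, limma adjusted p = 0.12). Rps3 shares only 8.09% of the 50-nt words of its coding sequence with other genes.

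Rps12, a protein of the beak of the head, had 3254, 3729 and 3285 FPKM in PFOA, against 4306, 4371 and 4049 FPKM in DMSO. PFOA 1 and 3 were alike and low, and the groups were apart (log2 fold change −0.31, SE 0.073, limma adjusted p = 0.13). Rps19, the protein most often mutated in human Diamond-Blackfan anaemia, had 925, 987 and 945 FPKM in PFOA and 1192, 1189 and 1137 FPKM in DMSO. Its SE was the smallest of these 6 genes, and the groups were apart. It had the smallest unadjusted p of the set in limma, 0.00017, at a log2 fold change of −0.30 (SE 0.047, Benjamini-Hochberg adjusted p = 0.11).

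Other members with the groups apart were spread over both lobes. Rps23, a protein of the decoding site, averaged 2355 ± 230.2 FPKM in PFOA and 2845 ± 159 in DMSO, and Rps7, of the body, 1489 ± 150 in PFOA and 1764 ± 29 in DMSO. Rps9 at the mRNA entry averaged 1687 ± 65 FPKM in PFOA and 2002 ± 16 in DMSO, with a log2 fold change of −0.25 (SE 0.051, limma adjusted p = 0.11). Rps20 in the head was at 157 ± 11 FPKM in PFOA and 184 ± 5.4 in DMSO, and Rps13 in the body at 1183 ± 46 in PFOA and 1364 ± 24 in DMSO. The head protein Rps10 was at 3130 ± 361 FPKM in PFOA and 3560 ± 68 in DMSO, with a wider spread in PFOA and its lowest value in PFOA 1. Rps25 was at 1067 ± 103 FPKM in PFOA and 1189 ± 40 in DMSO. Rps6, the protein that the S6 kinases phosphorylate, was at 1642 ± 85 FPKM in PFOA and 1782 ± 52 in DMSO, and Rps16, whose tail reaches the decoding site, at 2120 ± 139 in PFOA and 2299 ± 95 in DMSO. For these 9 genes each PFOA value lay below each DMSO value, although Rps6 and Rps16, like Rpsa, had positive fold changes under quantile normalization.

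Rpsa, also known as a laminin receptor and mutated in human isolated asplenia, had 1926, 2167 and 2097 FPKM in PFOA, against 2299, 2284 and 2168 FPKM in DMSO. The groups were apart by less than 1 FPKM (2167.2 in PFOA 2 against 2168.2 in DMSO 3), at a log2 fold change of −0.13 (SE 0.061, limma adjusted p = 0.28). Fau, made as a fusion of a ubiquitin-like protein with a small-subunit protein, had 1253, 1541 and 1421 FPKM in PFOA and 1531, 1595 and 1611 FPKM in DMSO. PFOA 2 was above DMSO 1, so the groups overlapped (log2 fold change −0.17, SE 0.076, limma adjusted p = 0.24).

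Rps27 and Rps27l encode close paralogs of which Rps27l is known as a p53 target in human cells. Rps27 had 2434, 3577 and 3283 FPKM in PFOA and 3751, 3825 and 3395 FPKM in DMSO. Rps27l had 339, 417 and 411 FPKM in PFOA and 447, 465 and 473 FPKM in DMSO. The groups were apart for Rps27l (log2 fold change −0.25, SE 0.077, limma adjusted p = 0.15) and overlapped for Rps27 (−0.26, SE 0.13, limma adjusted p = 0.30). The ratio of Rps27l to Rps27 was 0.139, 0.1165 and 0.125 in PFOA and 0.119, 0.122 and 0.139 in DMSO, and the groups overlapped. Every 50-nt word of the Rps27 coding sequence occurs in another gene, against 27.1% for Rps27l. The retrogene row Rps27rt, which is no member, had 347, 540.2 and 495 FPKM in PFOA and 667, 662 and 471 FPKM in DMSO, with DMSO 3 apart from DMSO 1 and 2.

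The groups overlapped in further members with the mean lower in PFOA. Rps26, which contacts the mRNA at the exit of the channel, held the highest mean FPKM of the whole table, 8920 ± 953 FPKM in PFOA and 9782 ± 620.0 in DMSO. Rps2, at the mRNA entry, averaged 2980 ± 174 FPKM in PFOA and 3486 ± 365 in DMSO, with DMSO 3 (3069 FPKM) below DMSO 1 and 2 (3744 and 3647 FPKM). Rps15a was at 75.35 ± 11 FPKM in PFOA and 87.75 ± 5.3 in DMSO. Rps28 was at 1583 ± 237 in PFOA and 1761 ± 24 in DMSO, and Rps4x, the X-linked form of its protein, at 1867 ± 195 in PFOA and 2069 ± 124 in DMSO. In each of these genes PFOA 1 was the lowest PFOA library. Rps15 was at 3430 ± 341 FPKM in PFOA and 3738 ± 149 in DMSO, Rps29 at 1105 ± 187 in PFOA and 1207 ± 127 in DMSO, and Rps3a1 at 2385 ± 88 in PFOA and 2558 ± 75 in DMSO. Rps24, mutated in some families with Diamond-Blackfan anaemia, was at 1914 ± 207 FPKM in PFOA and 2032 ± 27 in DMSO. Rps15, Rps29, Rps3a1 and Rps24 had positive fold changes under quantile normalization.

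The fold change nearest 0 among the named members was that of Rps21. This gene, for a small body protein that touches Rpsa, had 1949, 2490.5 and 2382 FPKM in PFOA and 2247, 2182 and 2401 FPKM in DMSO. Its log2 fold change was −0.0085 (95% confidence interval −0.22 to 0.20, limma adjusted p = 0.97), and the interval includes the median of the set. PFOA 1 was below and PFOA 2 above every DMSO library, and the sign changed when single libraries were left out.

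**Figure D3:**
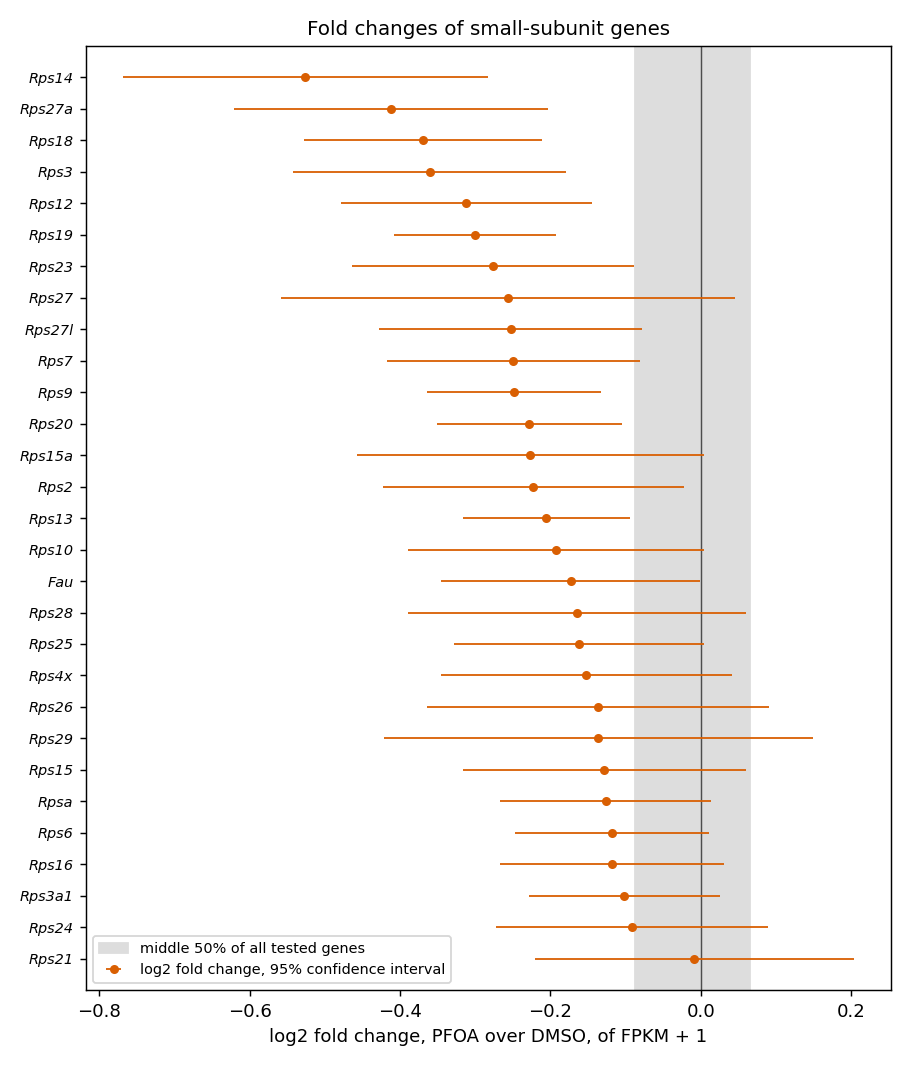
Log2 fold change of FPKM + 1, PFOA over DMSO, for 29 small-subunit genes, with its 95% confidence interval in limma (points and bars); the grey band runs from the lower to the upper quartile of all tested genes (−0.088 to 0.066). The points run from Rps14 at −0.53 to Rps21 at −0.0085, and over all 33 members the interval lay below 0 for 17.

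The proportions of the members among themselves differed between the groups for a few genes. When the median of the 33 genes in each library was subtracted, 25 of 33 differed by under 0.1 on the log2 scale between PFOA and DMSO. The SD of the uncentred log2 fold changes over the 33 members was 0.11. In the centred values Rps14 was at −0.35, −0.18 and −0.49 in PFOA 1, 2 and 3, against 0.017, 0.038 and −0.054 in DMSO. Rps27a averaged −0.23 in PFOA, Rps18 −0.18 and Rps3 −0.17, each with the groups apart. At the other end Rps21 was at 0.11, 0.21 and 0.22 in PFOA, against −0.015, −0.080 and 0.094 in DMSO. Rps24 averaged 0.095 in PFOA, also with the groups apart. In all, 6 centred members had every PFOA library below every DMSO library, with Rps23 and Rps7 completing that group, and 3 had every one above. Centring was done on the members only, so no share over all genes stands beside these counts. These values are a description of proportions within the set and carry no test.

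**Figure D4:**
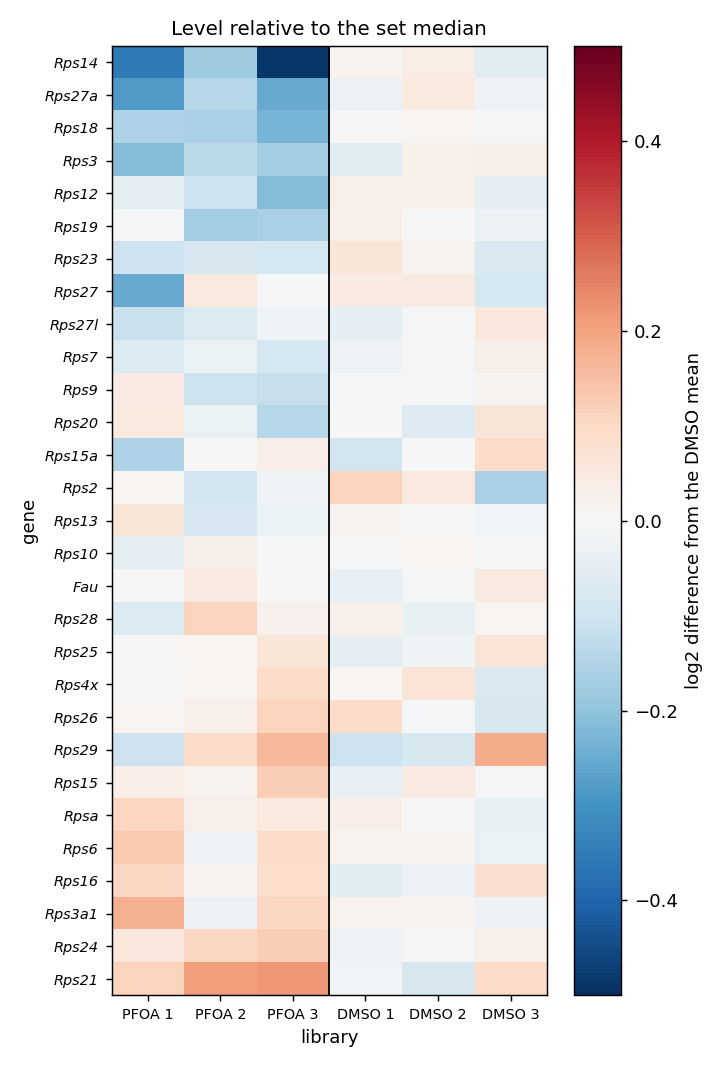
Level of 29 small-subunit genes on the log2 scale after the set median of its library was subtracted, relative to the DMSO mean of the gene, with PFOA libraries in the left columns and DMSO libraries in the right; blue is lower and red is higher. Rps14 was lowest in PFOA (−0.35, −0.18 and −0.49) and Rps21 was among the higher ones (0.11, 0.21 and 0.22).

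The difference between PFOA and DMSO varied with transcript length, and 22 of the 33 members are under 1000 nt, a limit chosen after the values were seen. Length here is that of the longest coding transcript in GENCODE M21. Across 11444 tested genes outside the ribosomal lists, Spearman's rho between length and log2 fold change was 0.59, over genes that share the same 6 libraries. For the 5 members under 500 nt the median on the log2 scale was −0.16, against −0.20 for non-ribosomal genes of that length. For the 17 members of 500 to 1000 nt the median fold change on the log2 scale was −0.19, against −0.16 for non-ribosomal genes of that length, of which 86.3% were lower. For the 6 members of 1000 to 1500 nt it was −0.21, against −0.11 for other genes. The 3 members of 1500 to 2000 nt stood at −0.13, against −0.074 for other genes. In the class of 3000 to 4000 nt the only member, Rps20, stood at −0.23, against 0.0064 for other genes. In that of 4000 to 6000 nt the only member, Rps15a, stood at −0.23, against 0.044. At 6000 nt or more, where no member stands, the median was 0.11. Within the 33 members rho between length and log2 fold change was −0.049, and between mean FPKM and log2 fold change 0.265, as a description over genes that share libraries. The 24 non-ribosomal genes under 1000 nt with a mean of at least 500 FPKM had a median of −0.17 with 22 lower. The 54 of 1000 nt or more at that level had a median of −0.064 with 40 lower, where 52.4% of all genes were lower. Each PFOA library lay below each DMSO library in 11 of the 24 and 21 of the 54, against 13.7% of all genes. The same held for 196 of all 636 non-ribosomal genes under 1000 nt and 12 of the 22 members under 1000 nt. At an unadjusted p below 0.05 in limma 244 of the 636 were lower, against 12.5% of all genes, and 11 higher, against 8.56%.

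**Figure D5:**
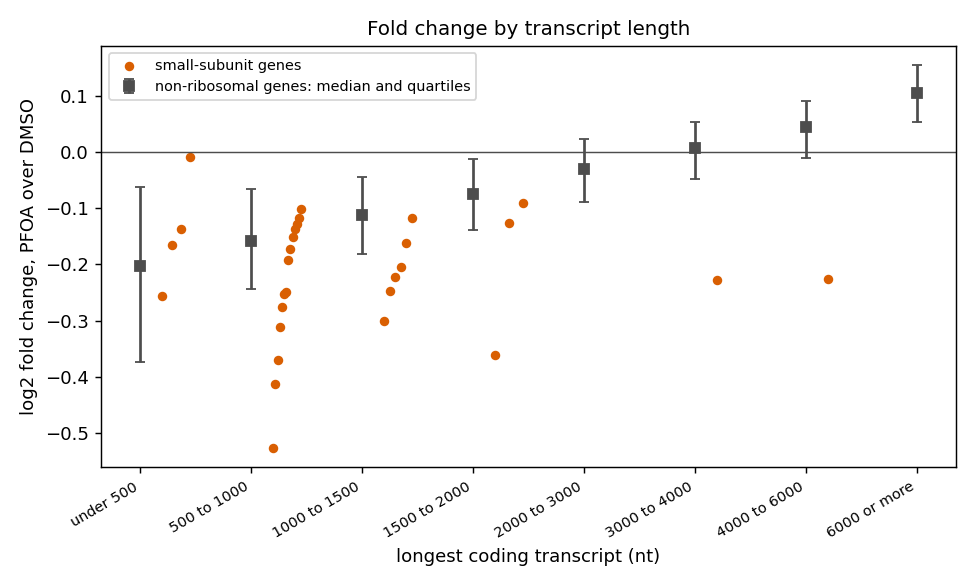
Log2 fold change, PFOA over DMSO, by the length of the longest coding transcript in nt: squares and bars give the median and quartiles of non-ribosomal genes in each length class, and orange points 29 small-subunit genes, spread sideways in order of fold change. Non-ribosomal medians ran from −0.20 under 500 nt to 0.11 at 6000 nt or more, and most members stood in the 2 classes under 1000 nt.

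With a per-library trend on that length removed, fitted on non-ribosomal genes, the set was nearer to DMSO but did not become uniform. The median log2 fold change was −0.052, with 23 of 33 lower against 49.1% of all genes. The medians over members were −0.11, −0.011 and −0.027 in PFOA 1, 2 and 3, against −0.015, 0.0071 and 0.012 in DMSO, so the groups overlapped. In 11 of 33 members each PFOA library lay below each DMSO library, against 9.48% of all genes. At an unadjusted p below 0.05 in limma 12 members were lower, against 7.1% of all genes, and 2 were higher, against 6.33%. Each PFOA library lay above each DMSO library in 2 members, against 10.6% of all genes. None (0 genes) had an adjusted p below 0.05, and the smallest was 0.19. Lowest were Rps14 at −0.37 (SE 0.080), Rps3 at −0.30 (SE 0.069), Rps15a at −0.28 (SE 0.11), Rps27a at −0.25 (SE 0.057) and Rps20 at −0.24 (SE 0.054). Rps21 was at 0.21 (SE 0.058), with each PFOA library above each DMSO library and a limma adjusted p of 0.25. The values of Rps15a and Rps20 rest on long annotated transcripts, 5179 and 3706 nt, whose use by the authors is not known. These genes also had the lowest mean FPKM of the set. When the trend was fitted instead on the median transcript length of each gene, an alternative added after the data were seen, the median was −0.13 with 31 of 33 lower, against 50.9% of all genes. The medians over members were then −0.23, −0.043 and −0.10 in PFOA 1, 2 and 3, against −0.018, 0.014 and 0.0051 in DMSO, and the groups did not overlap. With that trend 13 of 33 members had each PFOA library below each DMSO library, against 11% of all genes, and none had them apart upward, against 12.2%. In the same fit 13 were lower at an unadjusted p below 0.05 in limma, against 8.84%, and 0 higher, against 7.46%. The overlap of the groups thus depended on which transcript length was used.

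Many members share sequence with pseudogenes and other copies, so the counting of such reads could move their values. At least 80% of the 50-nt words of the coding sequence occurred in transcripts of other genes for 21 of 33 members, and all of them for 10. Less than 50%, a limit chosen after the values were seen, was shared by 7 members, among them Rps3, Rps9 and Rps27l, of which 6 were lower, at a median of −0.17. The 26 members with more shared words had a median of −0.20 with 26 lower. Of 11 ribosomal pseudogene rows 7 were tested and all 7 were lower, against 52.4% of all genes, with a median of −0.25. At an unadjusted p below 0.05 in limma 3 of the 7 were lower, against 12.5% of all genes, and 0 higher, against 8.56%. The groups overlapped in each of the 7, where 13.7% of all genes had them apart downward. Rpl31-ps12, high only in DMSO 1 and 2, is 1 of these rows.

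Genes that work on or with the small subunit are given for comparison, with no test of the difference from the set. Of 52 assembly factors, which process the ribosomal RNA and fit the proteins to it, 30 were lower and 22 higher, with a median of −0.017 (7 lower and 3 higher at an unadjusted p under 0.05 in limma, 0 called), where the background over all genes was 12.5% lower and 8.56% higher, here and for the lists that follow. Imp3 was at 58.7 ± 2.4 FPKM in PFOA and 70.2 ± 5.1 in DMSO, whereas Utp20 was at 34.4 ± 2.3 FPKM in PFOA and 29.8 ± 1.2 in DMSO and Heatr1 at 47.1 ± 2.8 in PFOA and 41.9 ± 1.7 in DMSO. Of 26 other genes with TOP mRNAs or close partners in translation, 20 were lower with a median of −0.064, and 6 were lower and 0 higher at an unadjusted p under 0.05 (0 called). Tpt1 was at 2309 ± 154 FPKM in PFOA and 2629 ± 19 in DMSO, Pfdn5 at 138 ± 9.4 in PFOA and 159.7 ± 4.6 in DMSO and Eef1e1 at 67.0 ± 4.8 in PFOA and 78.1 ± 2.8 in DMSO. Among 19 TOP regulators and S6 kinases 13 were higher and 6 lower, with a median of 0.020 (4 in each direction at an unadjusted p under 0.05, 0 called). Larp1, the TOP-binding repressor, was at 76.9, 69.5 and 71.5 FPKM in PFOA and 64.7, 65.1 and 65.0 FPKM in DMSO. Its groups were apart upward, as they were in 13.5% of all genes (log2 fold change 0.16, SE 0.043, limma adjusted p = 0.13). Rps6kb2, an S6 kinase, was at 12.9 ± 0.46 FPKM in PFOA and 14.4 ± 0.97 in DMSO, and Rps6kl1 at 7.17 ± 0.42 in PFOA and 8.11 ± 0.63 in DMSO. Of 4 MYC network genes 2 were higher and 2 lower, with none called (0 genes, 0 at an unadjusted p under 0.05). Myc was at 26.1 ± 0.71 FPKM in PFOA and 24.7 ± 1.3 in DMSO, Mycn at 71.25 ± 2.5 in PFOA and 73.7 ± 2.1 in DMSO and Max at 65.0 ± 2.0 in PFOA and 68.7 ± 1.9 in DMSO. With the trend on longest transcript length removed, the assembly factors had a median of 0.012 and the other TOP genes 0.0055. The TOP regulators and S6 kinases then stood at −0.00018 and the MYC network genes at −0.0043, against −0.052 for the small-subunit set.

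The genes whose profile over the 6 libraries was most like the median of the set were found by the root mean square distance on the log2 scale among 4300 other genes with a mean of at least 20 FPKM. The 5 nearest were Prdx1, a peroxide reductase (distance 0.019), Cdc34, a ubiquitin-conjugating enzyme (0.020), Atp5g1 and Atp5g2, which encode the membrane ring subunit of the ATP synthase (0.021 and 0.023), and Mtx2, of the mitochondrial outer membrane (0.022). Prdx1 had 644, 771 and 756 FPKM in PFOA, against 805, 831 and 810.2 FPKM in DMSO, the same order of PFOA libraries as most members. Of the 50 nearest genes, 6 encoded large-subunit proteins, against at most 53 of the 4300 candidates.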

How the data were processed

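RNA-seq of 3 PFOA and 3 DMSO libraries was read from 1 table of FPKM per gene that the authors deposited, with 1 column per library, rounded to 2 decimals. Per the labels' protocols, libraries were made from 1.2 µg of TRIzol RNA (integrity above 8.0) after poly(A) selection, for a BGISEQ-500. Bowtie2 2.2.5, HISAT2 2.0.4 and GRCm39 are named in the submitters' processing notes. How fragments were counted, and on which annotation, is not given in the sources used here. No whole reads could be taken from the FPKM, so no count test was run.

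The scale is log2(FPKM + 1), on which fold changes understate those of low genes, and the 11876 genes averaging 1 FPKM or more were tested. The contrast of PFOA and DMSO used limma 3.58.1 under R 4.3.3 (two-sided, prior variance following intensity), and a call is a Benjamini-Hochberg adjusted p below 0.05 over all tested genes. The fit was tested on simulated data in which genes vary independently, so that test does not bear on the length trend or the low PFOA 1. Groups and replicate numbers come from the titles. The members and gene lists were chosen with earlier results of these data known, so no p was adjusted over the members alone. Genes shown in every library are the 6 lowest and 2 highest fold changes, the 3 smallest p, Rps27 with Rps27l, Fau, Rps27a and Rpsa, except that 4 members enter counts, medians and sums only and their own values are not reported here. The 3 largest absolute fold changes per list and the 5 most alike genes are named too; Rps27rt, Rpl31-ps12 and the marker genes named were singled out after their values were seen. Lengths and shared words came from GENCODE M21, promoters from RefSeq, both on GRCm38, another build than the authors'. The length trend was a lowess curve (span 0.3). Alternatives tried were other pseudocounts, filters, scalings, library weights, a replicate block, length trends and leaving out libraries.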

Additional observations from a re-analysis of the deposited data

How the results depend on the processing

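The 33 small-subunit genes had a median log2 fold change below 0 under every alternative tried, and 23 to 33 of them were lower. The median was −0.047 under quantile normalization (24 lower, with Rps26 among them at −7.0e-16) and −0.052 after removal of the longest-transcript trend (23 lower), which takes out by construction what follows length. With the median-length trend removed, chosen after seeing the data, it was −0.13 (31 lower, 1 of all genes called). It was −0.11 when libraries were scaled to their FPKM total, which moved the median of all genes to 0.074, a difference of −0.18 between set and all genes. Scaling to the FPKM of other genes than ribosomal proteins, chosen after seeing the data, gave −0.14. Leaving out 1 library at a time gave medians from −0.25 to −0.097, with 30 to 33 lower, 0 to 6 small-subunit genes called and 0 to 94 of all genes called. The median nearest 0 came without PFOA 1 and the 6 member calls without PFOA 2. Of all genes 94 were called without PFOA 2, 52 without DMSO 3, 1 without PFOA 1, and 0 without DMSO 1, DMSO 2 or PFOA 3. Among all genes 1 was called, against 0 without the filter, without the intensity trend, with the longest-transcript trend removed and with DMSO 1 and 2 both left out, and 2 with library weights.

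No pairing of libraries by number was found: deviations of same-numbered libraries correlated at −0.11, −0.0095 and −0.14 over genes, below other pairs for each of replicates 1 and 3. With the replicate block 0 of all genes and 0 members were called, and the median was −0.19.

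Several members changed sign. Under quantile normalization Rps29 was at 0.019, Rps15 at 0.053, Rpsa at 0.035, Rps6 at 0.028, Rps16 at 0.075, Rps3a1 at 0.055, Rps24 at 0.065 and Rps21 at 0.20. Under the longest-transcript trend Rps28 was at 0.043, Rps26 at 0.034, Rps29 at 0.081, Rps15 at 0.057, Rps6 at 0.031, Rps16 at 0.0082, Rps3a1 at 0.037 and Rps21 at 0.21. Rps21 was also above 0 with scaling to the FPKM total (0.080), scaling to other genes (0.049), library weights (0.062), the median-length trend removed (0.056), and without DMSO 3 (0.030) or PFOA 1 (0.099). Leaving out 1 library gave −0.078 to 0.099 for Rps21 and −0.21 to 0.012 for Rps29. The cause of these changes was not tested. Depth is unknown, so what it limits cannot be given.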
